A study of Mus musculus with 12 samples.

Results

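The set of 10 immediate early and stress genes (Fos, Fosb, Jun, Junb, Egr1, Nr4a1, Nr4a2, Atf3, Ier2 and Zfp36) was examined in 12 RNA-seq libraries of mouse haematopoietic stem cells (HSCs). They are 10 of the 35869 genes in the deposited tables, were matched by symbol, and all 10 passed the filter on low counts. They were chosen with their levels in view, because 4 wild-type (WT) libraries held less of them than the other 8. That split is therefore described below and not tested.

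Bone marrow HSCs were sorted into fractions with (CD41pos) and without (CD41neg) surface CD41, the integrin alpha-IIb chain of megakaryocytes and platelets. Every mouse carried floxed RUNX1 alleles and was given poly(I:C), a synthetic RNA duplex that triggers interferon, in 4 injections, with cells taken 4 weeks later. WT mice were MxCre1-/-,RUNX1f/f, and knockout (KO) mice were MxCre1+/-,RUNX1f/f, so that the interferon-inducible Mx1 promoter, which is not restricted to blood cells, drove the recombinase in KO mice only. Age was not given in the labels. The 4 groups held 3 libraries each, with replicate labels 1, 3 and 4 in CD41pos WT, 2, 3 and 4 in CD41neg WT, and 1, 2 and 3 in both KO groups. Nothing in the labels says which libraries came from separate animals, so p-values measure the spread between these libraries. The labels also number the libraries, up to 10 in WT and from 13 in KO, so that library order and genotype cannot be told apart. The 4 WT libraries numbered up to 6 are CD41pos WT 1 and 4 and CD41neg WT 2 and 4. Numbers 9 and 10 are CD41pos WT 3 and CD41neg WT 3.

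Immediate early genes are transcribed within minutes of a stimulus from factors already present in the cell, without new protein synthesis, and their mRNAs are short-lived. Serum response factor (SRF) with its ELK partners and CREB are the best-known activators, downstream of MAP kinases and cyclic AMP. Tissue dissociation, warming and cell sorting are known to induce these genes in many cell types, and members such as JUNB, EGR1 and the NR4A receptors are known for restraining HSC proliferation.

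Most members are compact genes: 9 of 10, all but Atf3 at 47744 bases, spanned less than the median protein-coding gene tested. Their median span was 4698.5 bases against 23730 over 14574 protein-coding genes tested, and their largest exon number per transcript had a median of 3.5 against 9. Promoters are shown for the 4 genes that best carry the range of the data: Atf3 and Nr4a1, with the largest ratios between the library sets, Fosb, which varied most among the WT 3 libraries, and Fos, the most abundant. Each is the 250 bases before the RefSeq start on the gene's own strand, in GRCm38.p6, at chr1:191183334-191183583 (minus strand), chr15:101266596-101266845 (plus), chr7:19310046-19310295 (minus) and chr12:85473640-85473889 (plus). For Atf3 and Nr4a1 that start is an internal one, so the window lies inside the span of the longest transcript. The last 7 bases of the Atf3 window and the last 6 of the Fosb window are annotated as exon in GENCODE vM21. Capitals mark TGACG on either strand, the core of the cyclic AMP response element that CREB and ATF proteins bind.
Atf3: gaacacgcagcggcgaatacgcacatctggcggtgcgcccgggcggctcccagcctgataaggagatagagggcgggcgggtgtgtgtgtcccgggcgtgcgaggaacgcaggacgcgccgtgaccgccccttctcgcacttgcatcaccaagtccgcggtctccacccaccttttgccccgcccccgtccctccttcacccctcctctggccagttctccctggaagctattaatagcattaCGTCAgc
Nr4a1: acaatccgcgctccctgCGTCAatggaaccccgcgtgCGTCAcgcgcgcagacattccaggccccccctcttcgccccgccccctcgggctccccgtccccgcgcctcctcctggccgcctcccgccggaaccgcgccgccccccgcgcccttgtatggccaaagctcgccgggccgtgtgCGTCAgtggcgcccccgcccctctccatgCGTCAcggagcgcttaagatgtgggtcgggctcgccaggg
Fosb: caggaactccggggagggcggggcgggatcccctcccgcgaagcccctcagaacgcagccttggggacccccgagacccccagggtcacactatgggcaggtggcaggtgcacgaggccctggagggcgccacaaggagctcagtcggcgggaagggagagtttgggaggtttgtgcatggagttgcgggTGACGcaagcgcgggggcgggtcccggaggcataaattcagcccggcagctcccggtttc
Fos: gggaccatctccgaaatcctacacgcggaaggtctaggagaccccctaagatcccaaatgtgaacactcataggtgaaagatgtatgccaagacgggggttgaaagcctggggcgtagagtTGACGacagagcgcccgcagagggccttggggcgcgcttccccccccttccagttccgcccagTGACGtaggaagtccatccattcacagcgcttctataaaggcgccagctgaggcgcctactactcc

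The RefSeq table held 8 of the 10 promoters. TGACG was found, on either strand, in 6 of these 8 windows, against 17.8% of the 32851 windows of that length in the table. Nr4a1 held 4 matches, of which the nearest lay 40 to 36 bases upstream, Fos held 2, at 129 to 125 and 66 to 62 bases upstream, and Atf3 held 1, at 7 to 3 bases before the RefSeq start, within the bases annotated as exon. The EGR site GCGNGGGCG, read on both strands, was in 4 of 8 windows against 4.7%, in Nr4a1, Nr4a2, Fosb and Zfp36. A CArG box, the SRF site, was in 1 of 8 (Zfp36) against 1.47%, and TATAAA was in 2 of 8 (Fos and Nr4a2) against 12.4%. All 250 bases of the Zfp36 window are annotated as Zfp36 exon in GENCODE vM21, so its CArG box and EGR site lie in exon sequence of that annotation. The full element TGACGTCA, which contains TGACG, and the AP-1 site TGANTCA had 0 matches in these windows, against 1.55% and 6.75%. These are matches of letters in short windows, not measured binding.

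Over the whole series, total counts ran from 44108035 to 58946457 per library, with 21973 to 23306 genes detected in the 4 WT libraries and 23494 to 27097 in the other 8. Runx1 lay at 141 to 159 CPM in CD41pos WT, 65.7 to 90.5 in CD41neg WT, 270 to 382 in CD41pos KO and 157 to 171 in CD41neg KO. A gene total does not check the deletion, because the labels do not say which part is floxed. Itga2b, which encodes CD41, lay at 551 to 683 and 1028 to 1268 CPM in CD41pos WT and KO, and at 49.6 to 138 and 213 to 270 in CD41neg. The HSC markers Kit (184 CPM or more), Ly6a (47.5 or more), Slamf1 (21.4 or more), Mecom (21.0 or more) and Procr (6.24 or more) were present in every library. Summed markers of other cells are given as ranges for the 4, the WT 3 pair and KO. Only the B and plasma cell and the basophil and mast cell sums lay apart, higher in the 4 than in the other 8. Over all genes tested, 1.54% were higher in all 4 than in all 8 and 1.65% were lower. B and plasma cell markers (7 measured, 2 of them higher in all 4) summed to 755 to 3592 CPM in the 4, 365 to 553 in the WT 3 pair and 224 to 375 in KO. Basophil and mast cell markers (7 measured, 3 higher in all 4, Cma1 under 1 CPM throughout) summed to 927 to 1237, 662 to 908 and 570 to 675, and stromal and endothelial markers (10 measured, 1 higher in all 4) to 255 to 948, 235 to 329 and 83.2 to 133. Erythroid markers (8 measured, 2 lower in all 4) summed to 338 to 1092, 1280 to 1889 and 660 to 1583. Neutrophil and monocyte (2278 to 6482, 1881 to 5183 and 473 to 4135), macrophage (32.2 to 76.7, 61.6 to 121 and 15.4 to 112), T and NK cell (80.1 to 230, 131 to 298 and 48.9 to 137), megakaryocyte and HSC markers had 0 genes separated between the 4 and the 8. In bulk libraries fewer cells of a type and less RNA per cell cannot be told apart, and the part that these differences, and the library numbers, play in the levels below was not tested.

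All 10 genes were lower in each of the 4 WT libraries than in each of the other 8. Levels are CPM, counts scaled to a common library size after TMM normalisation for library composition. Only 1.65% of the 19395 genes tested had all 4 below all 8, but the members were chosen by this split, and nothing is read from the count. The members' median ratio between the medians of the 8 and of the 4 was 2.64, beside 0.982 over all genes tested. Together they made up 0.232 to 0.272% of counts in the 4 and 0.485 to 0.643% in the 8. The same 10 of 10 were separated in deposited TPM (scaled for gene length and library size), in DESeq2-scaled counts and in plain CPM.

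**Figure D1:**
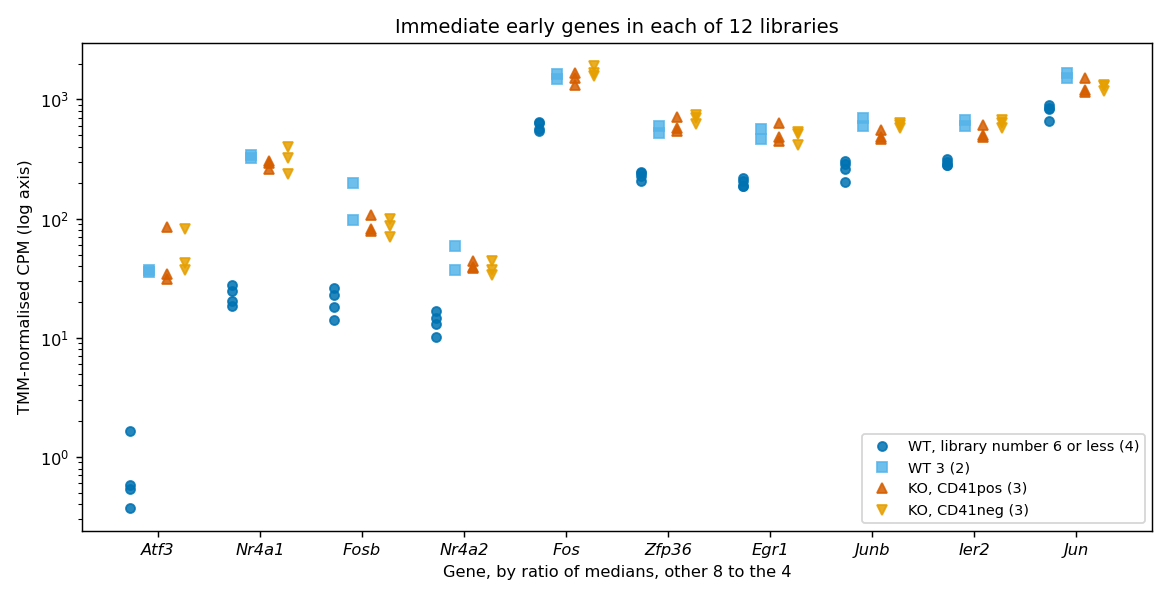
CPM (log axis) of each of the 10 genes in each of the 12 libraries, ordered by the ratio of medians, with the 4 WT libraries, the WT 3 pair and the KO libraries as separate symbols. In every gene the 4 lie below the other 8, from a ratio of 65.9 in Atf3 to 1.56 in Jun.

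The AP-1 genes encode subunits that pair through leucine zippers. Atf3 (chr1:191170296-191218039), a stress-induced member that can act as a repressor, was near absent in the 4 at 0.585 and 1.66 CPM in CD41pos WT 1 and 4 and 0.370 and 0.538 in CD41neg WT 2 and 4. In the other 8 it ran from 31.4 to 85.6 CPM with a median of 37.0. Raw counts were 19 to 99 in the 4 and 1565 to 4787 in the 8, so the low values rest on few reads. The WT 3 libraries, at 36.8 and 35.5 CPM, lay inside the KO range of 31.4 to 85.6. Within KO, number 2 stood out in both gates, at 85.6 and 82.3 CPM against 31.4 to 42.2 in the other 4 KO libraries (a feature chosen after its values were seen).

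Fosb (chr7:19302696-19310051), a FOS-family partner of JUN proteins, measured 26.0 and 18.2 CPM in CD41pos WT 1 and 4 and 14.2 and 22.8 in CD41neg WT 2 and 4. The other 8 ran from 70.2 to 198 CPM with a median of 91.9, and CD41pos WT 3 held the highest value, above the next library's 107. In TPM the same library was highest at 42.3, before 32.4 in CD41pos KO 2. Fos (chr12:85473890-85477273), the prototype of the family, measured 638 and 547 CPM in CD41pos WT 1 and 4 and 570 and 650 in CD41neg WT 2 and 4. Its range in the other 8 was 1315 to 1925 CPM, with a median of 1594 and the highest value in CD41neg KO 1.

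Jun (chr4:95049034-95052222), the main DNA-binding partner of FOS proteins, separated least. It measured 890 and 854 CPM in CD41pos WT 1 and 4, 833 and 659 in CD41neg WT 2 and 4, and 1144 to 1651 (median 1318) in the other 8. Junb (chr8:84974484-84978718), a JUN relative of weaker activating capacity, measured 262 and 204 CPM in the CD41pos pair and 288 and 306 in the CD41neg pair, against 466 to 694 (median 586). Junb overlaps Prdx2 on the opposite strand, and the library kit does not mark strand. Prdx2 itself ran at 291 to 517 CPM in the 4 and 229 to 413 in the 8, with overlapping ranges. Jun overlaps Junos, which lay at 1.26 to 2.18 CPM in the 4 and 0.948 to 2.16 in the 8, and Atf3 and Zfp36 overlap short opposite-strand models.

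Egr1 (chr18:34859823-34864984), a zinc-finger factor, measured 208 and 189 CPM in CD41pos WT 1 and 4 and 189 and 217 in CD41neg WT 2 and 4. The other 8 ran from 413 to 635, with a median of 498. The NR4A genes encode orphan nuclear receptors whose activity follows their abundance. Nr4a1 (chr15:101254269-101274795) measured 24.9 and 27.7 CPM in the CD41pos pair and 20.2 and 18.6 in the CD41neg pair, but 237 to 396 (median 312) in the other 8, with no value in between. Nr4a2 (chr2:57106830-57124003) measured 14.6 and 16.8 CPM in the CD41pos pair and 13.1 and 10.1 in the CD41neg pair, against 34.0 to 58.5 (median 38.9). Both receptors thus separated without overlap, Nr4a1 by a ratio of medians of 13.8 and Nr4a2 by 2.80.

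Ier2 (chr8:84661331-84662852), a short single-exon gene of a nuclear protein, measured 317 and 282 CPM in CD41pos WT 1 and 4 and 297 and 283 in CD41neg WT 2 and 4. Its other 8 values ran from 484 to 677, with a median of 607. Zfp36 (chr7:28376784-28380253) encodes tristetraprolin, which binds AU-rich elements and promotes decay of early-gene and cytokine mRNAs. It measured 248 and 207 CPM in the CD41pos pair and 226 and 241 in the CD41neg pair, against 519 to 747 (median 614). The lowest of the 8 was CD41neg WT 3 for Zfp36 and CD41pos KO 3 for Ier2. Coordinates are from GENCODE vM21 on GRCm38 (mm10).

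Compared with each other per length, in TPM, Fos was the most abundant member in the 8 libraries at 2485 ± 456 (SD, n = 8). Jun at 1371 ± 142, Ier2 at 1266 ± 168, Zfp36 at 1162 ± 227 and Junb at 1015 ± 126 followed. From Jun to Junb, the spreads of neighbours in that order overlapped. These SDs are across libraries, and the order of genes within each library was not tested. Egr1 came next at 539 ± 98.4, then Atf3 at 79.9 ± 39.4 and Nr4a1 at 58.5 ± 11.2, whose spreads overlap, Fosb at 28.8 ± 6.29 and Nr4a2 at 5.20 ± 0.568. In the 4 libraries the order was Fos, Jun, Ier2, Junb, Zfp36, Egr1, Fosb, Nr4a1, Nr4a2 and Atf3, so that Atf3, seventh in the 8, had the lowest mean at 1.28 ± 1.02 TPM (SD, n = 4). Nr4a2 at 1.70 ± 0.455 TPM overlapped it, and in CD41pos WT 4 Atf3 at 2.8 exceeded Nr4a2 at 2.2.

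The members' likeness across libraries was smaller once the 4 libraries were set aside. Across the 12 libraries the 45 pairwise Pearson correlations of log2 CPM ran from 0.868 to 0.986 with a median of 0.939. Across the 8 they ran from -0.327 to 0.913 with a median of 0.356, and 7 of the 45 were negative. These are descriptions over libraries that share genotype, gate and library number. Because the members were chosen by the split, high correlations over the 12 follow from that choice, and nothing is read from them.

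The CD41pos and CD41neg gates of the KO libraries hold none of the 4. In the fit of all 12 libraries 0 of 10 members passed an adjusted p of 0.05 (edgeR's quasi-likelihood test with Benjamini-Hochberg adjustment), beside 2.79% of all genes. At an unadjusted p under 0.05 there were 0 members beside 13.5% of genes, and DESeq2 called 0 members beside 6.46%. Differences, CD41pos minus CD41neg, ran from -0.28 to 0.09 on the log2 scale. The spread in that fit is shared by all 12 libraries and so holds the split within WT, by which the members were chosen. SEs of Atf3, Nr4a1 and Ier2 were 1.45, 1.06 and 0.327, and with a term for the 4 libraries 0.4655, 0.165 and 0.111. The 0 of 10 in the fit without the term therefore says little about the gates. With the term 0 of 10 members passed, beside 3.88% of genes. Same-numbered KO libraries deviated together, so the pairing could be used. With the KO number as a block in the KO libraries alone, Junb was lower in CD41pos by a log2 difference of -0.29 ± 0.07 (SE, adjusted p = 0.0383) and Ier2 by -0.25 ± 0.05 (adjusted p = 0.0301). In that fit 12.4% of 17969 genes were called and 5.81% were lower in CD41pos, beside 2 of 10 members. Junb in CD41pos KO measured 466, 554 and 487 CPM, all below the 636, 615 and 575 of CD41neg KO, a separation found in 14.1% of all genes. Ier2 measured 506, 613 and 484 CPM in CD41pos KO against 633, 677 and 573 in CD41neg KO, lower in 3 of 3 numbers although the ranges overlap. The other 8 members did not pass, and no member passed in log2(TPM + 1) with the same block, where 0 genes of 19395 were called and Junb and Ier2 gave -0.31 ± 0.09 (adjusted p = 0.179) and -0.27 ± 0.07 (adjusted p = 0.143).

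**Figure D2:**
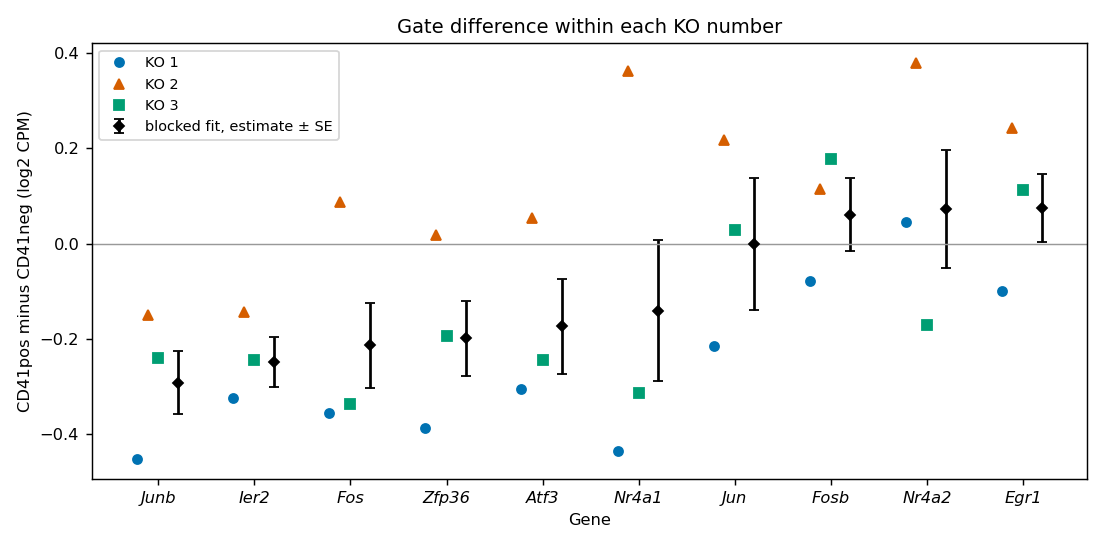
Log2 CPM difference, CD41pos minus CD41neg, for each KO number (symbols) and the estimate of the blocked fit ± SE (diamonds), by gene. Junb and Ier2 lie below 0 in 3 of 3 numbers, while the other 8 genes lie on both sides of 0.

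In WT the gates each hold a pair of the 4 libraries. Again 0 of 10 members passed in the fit of all 12 libraries, beside 5.59% of genes. At an unadjusted p under 0.05 there were 0 members beside 21.6% of genes, and DESeq2 called 0 members beside 11.2%. Estimates ran from -0.17 in Egr1 to 0.85 in Fosb, with adjusted p between 0.569 and 0.982. The SE of Atf3 was 1.47 and that of Nr4a1 1.06, and with a term for the 4 libraries in the fit these were 0.544 and 0.167. Without the 4 libraries, when each gate has 1 WT library that is assumed to vary like the KO libraries, Fosb was higher in CD41pos by 0.96 ± 0.27 (adjusted p = 0.0396), 1 member beside 7.96% of all genes higher. With the term for the 4 Fosb gave 0.52 ± 0.24 (adjusted p = 0.211) and did not pass. For the interaction, which asks whether the KO difference depends on the gate, edgeR called 0 of 10 members and 0 of 19395 genes (0%). At an unadjusted p under 0.05 it had 1093 genes (5.64%) and 0 members, and DESeq2 called 62 genes (0.293%) and 0 members. Interaction estimates of the members ran from -0.78 to 0.27. Their SEs, 0.419 to 2.065, hold the split too, so the 0 members called say little about the interaction.

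Between genotypes, all 10 estimates were above 0 in both gates, from 0.15 to 1.96 in CD41pos and from 0.34 to 2.15 in CD41neg, and 0 of 10 passed. In these fits 17.1% and 7.82% of all genes were called, and at an unadjusted p under 0.05 there were 0 members in CD41pos, beside 35.4% of genes, and 1, Zfp36, in CD41neg, beside 26.3%. DESeq2 called 0 members in CD41pos (21.8% of genes) and 1 in CD41neg (12.5% of genes), Zfp36 at 1.07 (adjusted p = 0.0369). Because 2 of the 3 WT libraries of each gate are among the 4 that chose the members, these values are a description and nothing is read from them.

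The estimates depended on which WT libraries served as controls. Without the WT 3 pair, KO exceeded WT for 10 of 10 members in both gates, from 0.58 (Jun) to 5.49 (Atf3) in CD41pos and from 0.79 (Jun) to 6.91 (Atf3) in CD41neg, beside 9.37% and 11% of genes higher. This repeats the split itself. Without the 4, 1 WT library per gate remained, assumed to vary like the KO libraries. In CD41pos, 2 of 10 members were then lower in KO, Fosb by a log2 difference of -1.05 ± 0.21 (adjusted p = 0.00481) and Junb by -0.37 ± 0.11 (adjusted p = 0.0283), beside 33.6% of all genes called and 14.2% lower. With a term for the 4 libraries in place of leaving them out, Fosb alone was lower (-0.91 ± 0.27, adjusted p = 0.0356), beside 10.7% of genes. In CD41neg 0 of 10 passed, beside 7.45% of genes, with 1 member at an unadjusted p under 0.05 (Zfp36). Both CD41pos calls rest on 1 library and on the scale. In log2(TPM + 1) without the 4, Fosb gave -0.63 ± 0.22 (adjusted p = 0.0772) and Junb 0.04 ± 0.11 (adjusted p = 0.849), with 0 members called beside 40.5% of genes. With DESeq2 size factors, where 14.9% of genes were lower, they gave -1.08 ± 0.21 (adjusted p = 0.00442) and -0.41 ± 0.11 (adjusted p = 0.0215). Junb in CD41pos WT 3 was the highest of the 8 libraries in CPM at 694, whereas its 897 TPM lay within the 845 to 1013 of CD41pos KO. Atf3 and Nr4a1, the genes with the widest split, gave 0.55 ± 0.63 and -0.18 ± 0.23 in CD41pos without the 4, with neither passing.

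**Figure D3:**
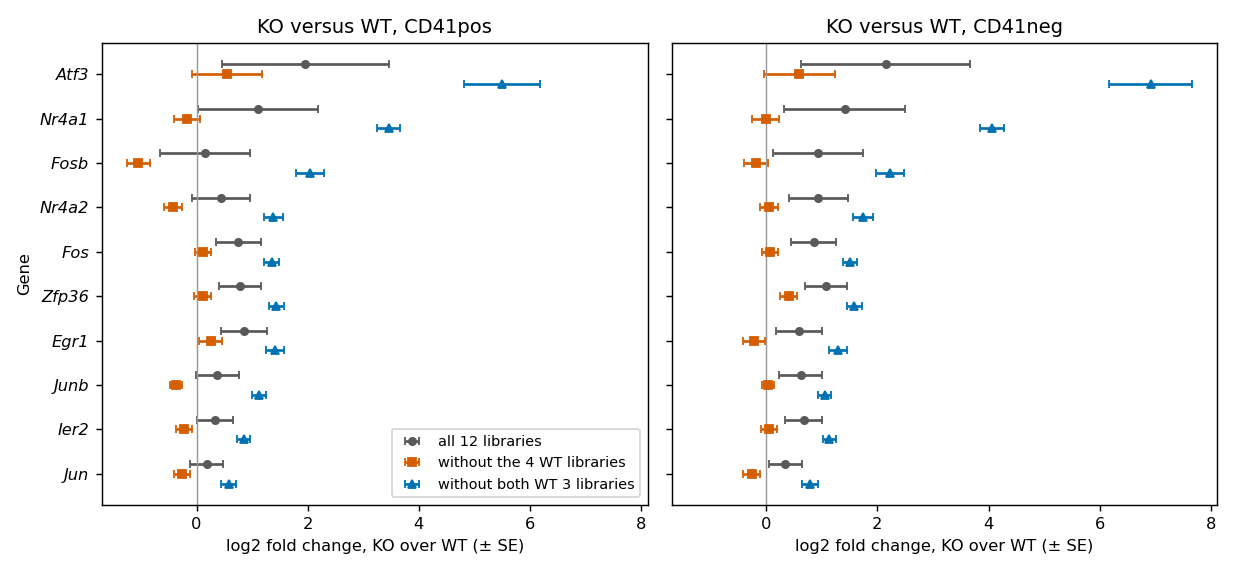
Log2 fold change of KO over WT ± SE for each gene in CD41pos (left) and CD41neg (right), with all 12 libraries, without the 4 WT libraries and without the WT 3 pair. Estimates without the WT 3 pair are above 0 in 10 of 10 genes in both gates, and those without the 4 lie on both sides of 0. The latter run from -1.05 (Fosb) to 0.55 (Atf3) in CD41pos and from -0.26 (Jun) to 0.60 (Atf3) in CD41neg.

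Related genes shared the split to differing degrees. Of other EGR and NR4A genes, 3 of 6 lay lower in all 4 libraries than in all 8 (Egr3, Egr4 and Nr4a3, all under 6 CPM). Of other early regulators 15 of 30 did, among them Plk2, a polo-like kinase, with a ratio of medians of 7.43, Btg2, an antiproliferative factor, with 4.72, Klf2 with 2.56 and Cdkn1a, the p21 inhibitor, with 3.46. In the feedback list 5 of 15 did, with Dusp1, a MAP kinase phosphatase, at 376 to 491 CPM in the 4 and 893 to 1237 in the 8. Heat shock genes gave 3 of 13 (Dnajb1, Dnaja1 and Hspa8), other AP-1 and bZIP genes 1 of 11 (Jund), and upstream factors such as Srf and Creb1 and the integrated stress response gave 0 of 19 and 0 of 9. The list medians of the ratio were 2.25, 1.76, 1.36, 1.44, 0.923, 1.05 and 0.793 in the order of naming here, beside 0.982 over all genes. In TPM the counts were 2, 12, 5, 2, 1, 0 and 0, so the EGR and NR4A, early regulator and heat shock counts vary with the scale. Over all genes tested, the share with all 4 below all 8 was 1.65% in CPM and 0.768% in TPM. Some listed genes had lower medians in the 8, such as Pim1 among early regulators (ratio 0.396) and Dusp4 in feedback (0.433). Their ranges overlapped, and 0 genes of either list lay higher in all 4 than in all 8.

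**Figure D4:**
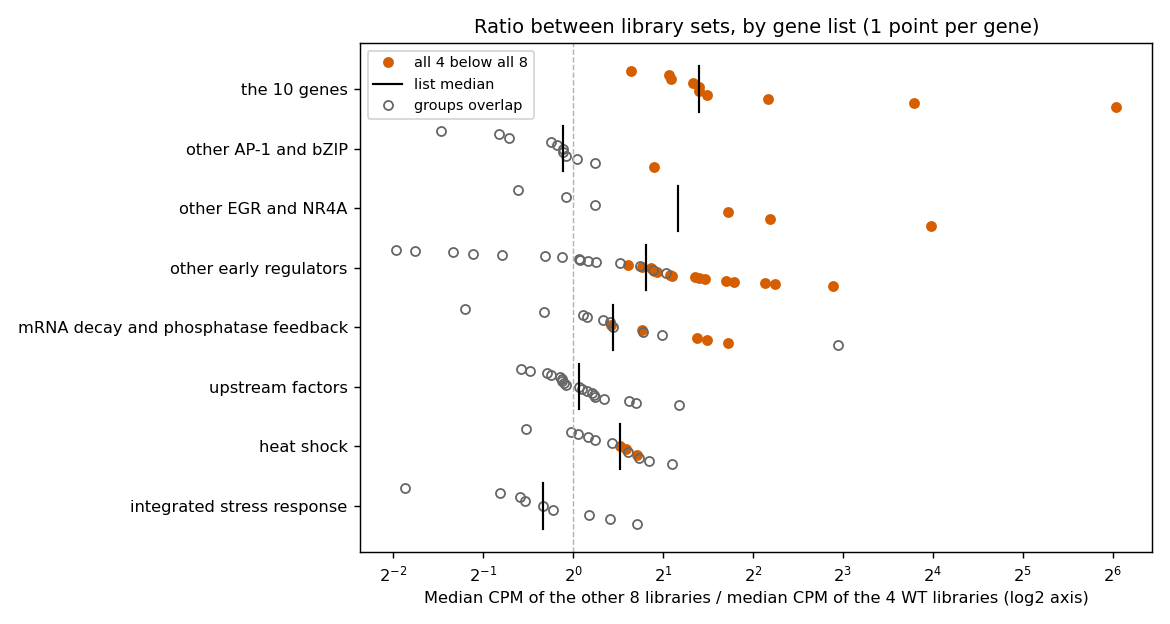
Ratio of the median CPM of the other 8 libraries to that of the 4 WT libraries (log2 axis), 1 point per gene, by list, with filled points where all 4 lie below all 8 and a line at each list's median. The 10 genes have 10 filled points by choice, other early regulators 15 of 30, and upstream factors and the integrated stress response 0. Over all genes tested, 1.65% had all 4 below all 8.

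Genes of these lists were also tested between gates and genotypes. In the WT gate comparison CD41pos was higher for Batf (0.82 ± 0.17, adjusted p = 0.0179), Socs1 (0.89 ± 0.21, adjusted p = 0.0331) and Mapkapk2, a kinase downstream of p38 (0.54 ± 0.11, adjusted p = 0.0166). It was lower for Mapk9, Hspd1, Asns and Chac1, with Asns, asparagine synthetase, at -1.12 ± 0.21 (adjusted p = 0.0108). In KO, Mapkapk2 (0.56 ± 0.11, adjusted p = 0.019), Asns (-0.87 ± 0.21, adjusted p = 0.0465) and Gadd45a, a growth arrest gene (-1.09 ± 0.24, adjusted p = 0.0321), were called. Across the 7 lists, by KO against WT in CD41pos, 0 higher and 3 lower of 11 were called among AP-1 and bZIP genes, 2 and 0 of 6 among EGR and NR4A, 3 and 2 of 30 among early regulators, 1 and 1 of 15 in feedback, 4 and 2 of 19 upstream, 1 and 0 of 13 in heat shock and 1 and 1 of 9 in the integrated stress response. Over all genes tested 9.79% were higher and 7.27% lower. In CD41neg the counts were 0 and 0, 0 and 0, 2 and 0, 2 and 0, 2 and 1, 0 and 1, and 1 and 2, beside 3.85% higher and 3.97% lower over all genes. Called in both gates were Tnfaip3, an NF-kappaB inhibitor (2.86 ± 0.53 and 1.98 ± 0.51), Ppp1r15a (0.87 ± 0.20 and 0.95 ± 0.20), Creb1 (1.29 ± 0.19 and 1.11 ± 0.19) and Eif2ak4, an eIF2alpha kinase (0.98 ± 0.14 and 0.52 ± 0.14), all higher in KO. Lower in both gates were Srf (-0.84 ± 0.21 and -0.88 ± 0.21) and Asns (-0.67 ± 0.21 and -0.92 ± 0.21). As for the members, 2 of the 3 WT libraries of each gate are among the 4, so these KO against WT values are a description. Tnfaip3 lay at 14.3 to 32.3 CPM in the 4 and 21.1 to 250 in the 8, with a ratio of medians of 7.71. Its 21.1 CPM was in CD41pos WT 3, which lay with the 4. By group it measured 18.4 to 21.1 CPM in CD41pos WT and 108 to 178 in CD41pos KO. In CD41neg it measured 14.3 to 100 CPM in WT and 151 to 250 in KO. The part that the split plays in these calls was not tested.

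The gene most like the set, by Pearson correlation with the members' mean z-score of log2 CPM over the 12 libraries among 9726 candidates, was Dusp1 at 0.978. Nfkbid (0.956), Ier5 (0.952), Cdkn1a (0.942) and Tmem33 (0.941) followed. The score carries the split that chose the members, so the order over the 12 libraries is a description only. The most opposite were AA465934 (-0.945), Vmac (-0.936), Dhcr7 (-0.925), BC018473 (-0.922) and Fn3krp (-0.921). BC018473 lay at 42.6 to 63.4 CPM in the 4 and at 0 to 0.671 in the 8, and AA465934 at 26.3 to 44.2 and 0.401 to 2.11. Over the 8 libraries alone the closest were H2-M3 (0.870), Kcnh6 (0.851), Cdk11b (0.847), Ier3 (0.839) and AW112010 (0.838). In log2(TPM + 1) these were 0.896, 0.624, 0.869, 0.649 and 0.808. They are the highest of 9726 candidates over 8 libraries, so this order too is a description only.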

How the data were processed

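Libraries were made from total RNA of sorted cells with the SMART-Seq v4 kit, per the labels' protocols. The submitters' processing notes name FastQC 0.11.7, cutadapt 1.9.1, STAR 2.6.1e, featureCounts 1.6.2 and mm10. No source used here gives their settings or an annotation release. The authors deposited whole-number counts per gene, not normalized, and a matching table of TPM. Gene names that the count file shows as dates (27 of them) were read from the TPM file.

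Total counts per library were 44108035 to 58946457. Of 35869 genes, 19395 passed filterByExpr and 16474 did not. The main test was edgeR 4.0.16 (R 4.3.3): TMM, 1 quasi-likelihood fit of 4 group means over 12 libraries, two-sided, Benjamini-Hochberg over all genes tested, threshold 0.05. Log2 CPM used a prior count of 2. Fold changes on the TPM scale are log2(TPM + 1) or log2(TPM + 0.1) and understate the change of low genes. The script was tested on simulated data. Tried as alternatives were edgeR with DESeq2 size factors, DESeq2 1.42.0, no low-count filter, only the groups compared, a replicate block, a term for the 4 WT libraries, fits without them, limma-trend (limma 3.58.1) on TPM, and leaving out each library. The fits without the WT 3 pair, the blocked fit of KO libraries alone, and the TPM and size-factor versions of the fits without the 4 or of KO alone were chosen after seeing the data.

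The members and gene lists were chosen with earlier results of these data known. Named genes were the 10 members; from each other list up to 4 past the threshold in a gate comparison; and the 5 highest and lowest correlations with the members' mean z-score (mean of at least 10 CPM, no predicted genes), plus the 5 highest over the 8 libraries. Genes named for the split, for calls in both gates of KO against WT, or in the overlap check were chosen after their values were seen. Deviations from the group means over 10206 genes were correlated across gates to check pairing: 0.473, 0.652 and 0.539 for KO numbers 1, 2 and 3, which pairs them, and 0.141 and -0.517 for WT labels 3 and 4, which does not. Promoters and motif shares used RefSeq sequences of GRCm38.p6, and gene positions GENCODE vM21.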

Additional observations from a re-analysis of the deposited data

How the results depend on the processing

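Limits: the split between the 4 WT libraries and the other 8 lies within 1 genotype, and its cause was not tested. In the fit of all 12 libraries the split enters the spread of every member in every comparison, also between the KO gates. Depth limits Atf3 in the 4, at 19 to 99 counts. A lone WT library per gate, where the 4 are left out, is assumed to vary like the KO libraries. Genes called in KO against WT numbered 3309 in CD41pos and 1517 in CD41neg; the gates gave 1084 in WT and 541 in KO, and the interaction gave 0.

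In that order, calls with the replicate block for all libraries were 957, 458, 42, 156 and 1, with 0 members. For KO against WT that block joins libraries of the same label from mice of different genotype. Between the WT gates it joins labels that did not pair. Neither is a true pairing, so those counts show only what the added terms do. The KO libraries alone with the block gave 2222 genes and 2 members between gates, and 0 genes in log2(TPM + 1). DESeq2 gave 2901, 2299, 1241 and 62 for the last 4, with 1 member, Zfp36, in CD41neg. Fits of only the groups compared gave 2154 in CD41pos for KO against WT, 201 for the WT gates and 1505 for the KO gates. The interaction had 2 genes with no low-count filter, 7 in log2(TPM + 1) and 26 in log2(TPM + 0.1), and log2(TPM + 0.1) gave 2090 in CD41pos for KO against WT.

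Without the 4 WT libraries KO against WT in CD41pos had 7469 genes and 2 members (7472 and 2 with DESeq2 size factors, 7864 and 0 in log2(TPM + 1)), the WT gates 4672 and 1, the KO gates 1464 and the interaction 3368. With a term for the 4, 1 member was called in CD41pos. Without the WT 3 pair, CD41neg had 3923 genes, and 10 members were called in each gate. Fosb in CD41pos turned to -0.91 with the term, -1.05 without the 4 and -1.08 with DESeq2 size factors, and Junb to -0.37 and -0.41 without the 4. The cause was not tested.

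Leaving out 1 library at a time gave 965 to 4076 and 341 to 3856 genes for KO against WT, 442 to 1166 and 196 to 1041 between gates, and 0 to 2 for the interaction. Members called were 0 to 4 in each KO against WT comparison, with 4 without the WT 3 library of that gate and, in CD41neg, 1 without CD41pos WT 3, and they were 0 between gates and in the interaction. The highest counts for CD41neg (3856) and for the KO gates (1041) came without CD41pos WT 3, and the lowest came without CD41pos KO 2 (965 and 196), CD41neg KO 3 (341) and CD41neg WT 4 (442). Of 1140 values of members under the alternatives, 1102 stayed on the same side of the threshold and 33 gained a call. The 5 that reversed, as given above, passed with a sign opposite to a main estimate that had not passed. That 0 lost a call was fixed in advance, since no member passed in the main fit. Values that never passed changed sign in 103 cases. For Batf, Gadd45a, Socs1, Mapk9, Mapkapk2, Hspd1, Asns and Chac1, values were counted in the gate comparisons and the interaction only. Of these 528 values, 441 stayed on the same side of the threshold, 77 lost a call and 10 gained one. The 441 include values with no call in the main fit.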
